A study of Mus musculus with 6 samples.

Results

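The genes described here are 10 alcohol and aldehyde dehydrogenases, 3 of the ADH family (Adh1, Adh4 and Adh5) and 7 of the ALDH family (Aldh1a1, Aldh1a7, Aldh1b1, Aldh2, Aldh3a2, Aldh8a1 and Aldh1l1). They were taken by symbol from the 34866 genes of the deposited count table. All 10 passed the filter on low counts that 13718 genes passed, with total counts over all libraries between 4678 for Aldh1b1 and 312239 for Adh1. The samples were livers of male C57BL/6 mice aged 8 weeks, 3 samples with iD1 and 3 with vehicle, and polyadenylated RNA was sequenced with a stranded kit. iD1 is known here only by its code name, and the labels give it by intraperitoneal injection without a dose, an exposure time or a target. The vehicle samples carry the treatment label untreated, while their titles name a vehicle. The number in the name of 1 vehicle column matches none of the titles, and that library is called the unnumbered vehicle replicate. Nothing in the labels says that the libraries of a group come from different animals, so p-values reflect only how much these samples vary, which may be technical.

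Alcohol dehydrogenases oxidise alcohols to aldehydes with NAD+, and aldehyde dehydrogenases oxidise aldehydes to carboxylic acids. In liver this is the route by which ethanol becomes acetaldehyde and then acetate, and the same families make retinoic acid from vitamin A, clear formaldehyde and long-chain fatty aldehydes, and serve the breakdown of tryptophan and the folate cycle. Hepatocytes are the main cells that hold these enzymes.

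The 3 ADH genes lie in the same stretch of the plus strand of chromosome 3 of GRCm38, per GENCODE M21, with Adh1 at chr3:138260991-138290698, Adh4 at chr3:138415466-138430892 and Adh5 at chr3:138443093-138455499. Aldh1a1 at chr19:20492715-20643465 on the plus strand and Aldh1a7 at chr19:20692953-20727562 on the minus strand also lie close together. The other 5 members lie apart, with Aldh1b1 at chr4:45799022-45804604, Aldh2 at chr5:121566027-121593824, Aldh1l1 at chr6:90486427-90600203, Aldh8a1 at chr10:21377291-21396585 and Aldh3a2 at chr11:61223417-61267464.

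Aldh1a7 and Aldh1a1 are the closest copies among the members, and they are shown because the only called difference fell on Aldh1a7. Their coding sequences were identical at 1377 of 1503 aligned bases (91.62%), with a longest identical run of 100 bases. The next most alike pair, Aldh1b1 and Aldh2, shared 69.5%, and the 3 ADH genes shared between 62.85% and 65.84% in pairs. The stretch below holds coding bases 707 to 796 of each transcript in GENCODE M21, counted from the first base of the start codon, and the capitals mark the 7 of 90 bases that differ.

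Aldh1a7: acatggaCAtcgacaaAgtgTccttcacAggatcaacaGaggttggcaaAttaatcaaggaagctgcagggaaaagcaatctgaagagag

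Aldh1a1: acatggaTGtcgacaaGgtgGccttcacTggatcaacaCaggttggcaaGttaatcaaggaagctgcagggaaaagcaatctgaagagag

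Of all stretches of 75 bases in these transcripts, 50 occur in both, which is 2.51% of those in Aldh1a7 and 2.19% of those in Aldh1a1. With 1 protein-coding transcript of each member set against all GENCODE M21 transcripts, no such stretch of the other 8 members was found in sense orientation in another gene. How such reads were shared out in the estimated counts was not stated in the labels.

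The likeness of the pair extends to the bases before 1 of the 2 RefSeq start sites of Aldh1a1, which was chosen for that likeness. The 250 bases upstream of Aldh1a7 (chr19:20727557-20727806, minus strand) and of the Aldh1a1 start most like it (chr19:20601718-20601967, plus strand) were 65.3% identical, as given by RefSeq on GRCm38.p6. This Aldh1a1 start lies 109253 bases from the GENCODE M21 start of the gene. RefSeq lists another Aldh1a1 start, 132 bases from the GENCODE M21 start, where the figure was 50.9%. The capitals mark the longest shared run, 65 bases from -94 to -30 relative to the start in both genes, which holds a CCAAT box at -72.

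Aldh1a7: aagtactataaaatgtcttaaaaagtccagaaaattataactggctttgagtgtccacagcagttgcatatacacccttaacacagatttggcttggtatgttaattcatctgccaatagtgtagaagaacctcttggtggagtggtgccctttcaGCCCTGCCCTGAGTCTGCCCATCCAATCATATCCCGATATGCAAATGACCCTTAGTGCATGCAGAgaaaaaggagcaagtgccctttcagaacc

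Aldh1a1: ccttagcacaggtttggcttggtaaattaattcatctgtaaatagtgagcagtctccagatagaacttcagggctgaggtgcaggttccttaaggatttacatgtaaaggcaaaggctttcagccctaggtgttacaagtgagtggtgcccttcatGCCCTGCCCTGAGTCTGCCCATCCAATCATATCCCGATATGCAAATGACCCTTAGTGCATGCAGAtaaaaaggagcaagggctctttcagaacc

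The ADH genes differ most in the CG content of the same window, and Adh4 and Adh5 are shown as its extremes among the members. Adh4 (chr3:138415247-138415496, plus strand) held 1 CG pair and Adh5 (chr3:138442843-138443092, plus strand, at the RefSeq start that matches GENCODE M21) held 21, against a median of 6 over 32851 RefSeq promoters. Aldh1a7 and the Aldh1a1 start shown above also held 1 CG pair each (3 at the other Aldh1a1 start), and Aldh3a2 held 18. CG pairs are in capitals.

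Adh4: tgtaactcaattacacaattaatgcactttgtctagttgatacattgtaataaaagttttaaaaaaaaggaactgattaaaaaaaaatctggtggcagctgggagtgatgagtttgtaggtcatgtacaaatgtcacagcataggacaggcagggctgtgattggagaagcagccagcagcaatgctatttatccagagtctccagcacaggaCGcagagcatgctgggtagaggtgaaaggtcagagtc

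Adh5: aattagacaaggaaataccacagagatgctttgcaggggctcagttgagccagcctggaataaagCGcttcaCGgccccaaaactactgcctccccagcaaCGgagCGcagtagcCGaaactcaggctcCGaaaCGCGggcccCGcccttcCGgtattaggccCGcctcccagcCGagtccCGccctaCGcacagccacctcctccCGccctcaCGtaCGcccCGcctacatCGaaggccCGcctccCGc

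The 9 members with an entry in the promoter table were searched on both strands for 6 motifs, and no match of one motif overlapped a match of another. The CCAAT box (CCAAT) occurred in 5 of 9 (Adh4, Aldh1a1, Aldh1a7, Aldh3a2 and Aldh1l1), against 33.85% of all promoters of that length. The Aldh1a1 window was chosen for its likeness to Aldh1a7, and its match at -72 lies in the run shared with Aldh1a7. The matches of this pair are therefore not independent, and the share cannot be read against the background. The TATA core TATAAA occurred in Aldh1a7 only, at -244, far from the start (12.37% of all promoters). The glucocorticoid receptor motif AGAACA occurred in Adh1 only, at -235 (16.08%), and the C/EBP motif TTGCNNAA in Aldh1l1 only, at -234 (9.564%). TGACG, from the cAMP response element (17.77%), and the nuclear receptor direct repeat DR1 (0.03348%) did not occur in the windows of these 9 members.

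The libraries held between 23515571 and 37613549 estimated counts. TMM scaling factors ranged from 0.878 to 1.01 in iD1 and from 1.01 to 1.11 in vehicle libraries, and mitochondrially encoded genes took 8.68% to 10.3% of the counts in iD1 and 10.6% to 13.6% in vehicle. Levels are given as CPM, counts scaled to a common library size after TMM. All 8 hepatocyte markers were detected, and edgeR called 3 of them higher with iD1, but 2 without iD1 replicate 1 and 1 without any 1 of the other libraries. Markers of the pericentral zone summed to 7320 to 10300 CPM in iD1 and 4287 to 5614 CPM in vehicle, with 2 of 8 higher and 1 lower (1 higher and 0 lower without vehicle replicate 2). DESeq2 called 4 of these higher and 1 lower, and limma-voom 3 higher and 1 lower. An unadjusted p under 0.05 was found in 5, 4 higher and 1 lower. Cyp2e1 made up 75.03% to 83.4% of that sum in iD1 and 72.6% to 74.9% in vehicle, and the sum without it was 1436 to 1907 CPM in iD1 and 1175 to 1412 CPM in vehicle. Periportal markers summed to 3710 to 4302 CPM in iD1 and 2899 to 3506 CPM in vehicle, with 1 of 6 higher (2 without iD1 replicate 1). DESeq2 called 2 of these higher and 1 lower, and limma-voom 2 higher and 0 lower. An unadjusted p under 0.05 was found in 4, 3 higher and 1 lower.

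Among other cell types, neutrophil markers summed to 3.51 to 11.2 CPM in iD1 and 1.16 to 1.32 CPM in vehicle livers. edgeR called 3 of 4 tested neutrophil markers higher (1 with vehicle replicate 1 or the unnumbered vehicle library left out). Kupffer cell markers summed to 82.3 to 113.6 CPM in iD1 and 83.6 to 140.4 CPM in vehicle. Of these, 0 of 6 were called in edgeR (1 lower without vehicle replicate 1), while DESeq2 and limma-voom each called 1 higher. At an unadjusted p under 0.05 there were 2, 1 higher and 1 lower. Sinusoidal endothelial markers summed to 133 to 167 CPM in iD1 and 157 to 194 CPM in vehicle. Of these, 1 of 6 was called lower in edgeR (0 without any 1 vehicle library, 2 without iD1 replicate 3), 3 were lower in DESeq2, and 5 had an unadjusted p under 0.05, 4 lower and 1 higher. Of 6 stellate cell markers 1 was called lower in edgeR (2 without vehicle replicate 1) and 2 in DESeq2, and 3 had an unadjusted p under 0.05, all lower. Of 5 cholangiocyte markers 1 was called higher (with all libraries, or without iD1 replicate 3) and 1 lower, and the 1 tested lymphocyte marker, Ptprc, was lower. Of 5 erythroid markers edgeR and limma-voom called 0 and DESeq2 called 1, with 2 at an unadjusted p under 0.05, but edgeR called 4 higher without vehicle replicate 1 and 1 higher without iD1 replicate 1. Beside these counts of zone and cell type markers, edgeR called 16.7% of all tested genes (8.42% higher and 8.3% lower). An unadjusted p under 0.05 was found in 31.3% of them. None of the listed markers was at 0 in every library. The part of these differences in the values of the members was not tested.

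Setting iD1 against vehicle livers shows which of these transcripts differ between these samples, within the limits of the labels given above. Among the 10 members, Aldh1a7 was lower with iD1 and no member was higher, taking as called an adjusted p under 0.05 by the quasi-likelihood test of edgeR (Benjamini-Hochberg, all tested genes). That is 1 of 10 members, against 16.7% of all tested genes (8.42% higher and 8.3% lower). At an unadjusted p under 0.05 there were 4 of 10 (Aldh2 higher, and Adh4, Aldh1a7 and Aldh1b1 lower), against 31.3%. The groups did not overlap in 5 of 10 members, against 37.2% of all tested genes (18.5% higher and 18.7% lower). Adh1, Adh4, Aldh1a7 and Aldh8a1 were lower with iD1 in this way, and Aldh2 was higher. Of the members, 8 of 10 had a log2 fold change between -0.5 and 0.5, against 71.7% of all tested genes, and the median over the members was -0.09, against 0.00 over all. The 3889 tested genes at least as abundant as the lowest member were called in 20.1% of cases, with a median log2 fold change of 0.10. DESeq2 called 2 members, Adh4 and Aldh1a7, both lower, and limma-voom called Aldh1a7. Taken in either direction, these shares lie within about 1 gene of the background. The 4 of 10 members without overlap on the lower side lie further from their background of 18.7%. With 10 genes none of these shares is read as a result about the members. The split of all called genes depends on the scaling, with 50.4% higher under TMM, 38.4% with upper-quartile scaling and 24.1% by library size only.

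**Figure D1:**
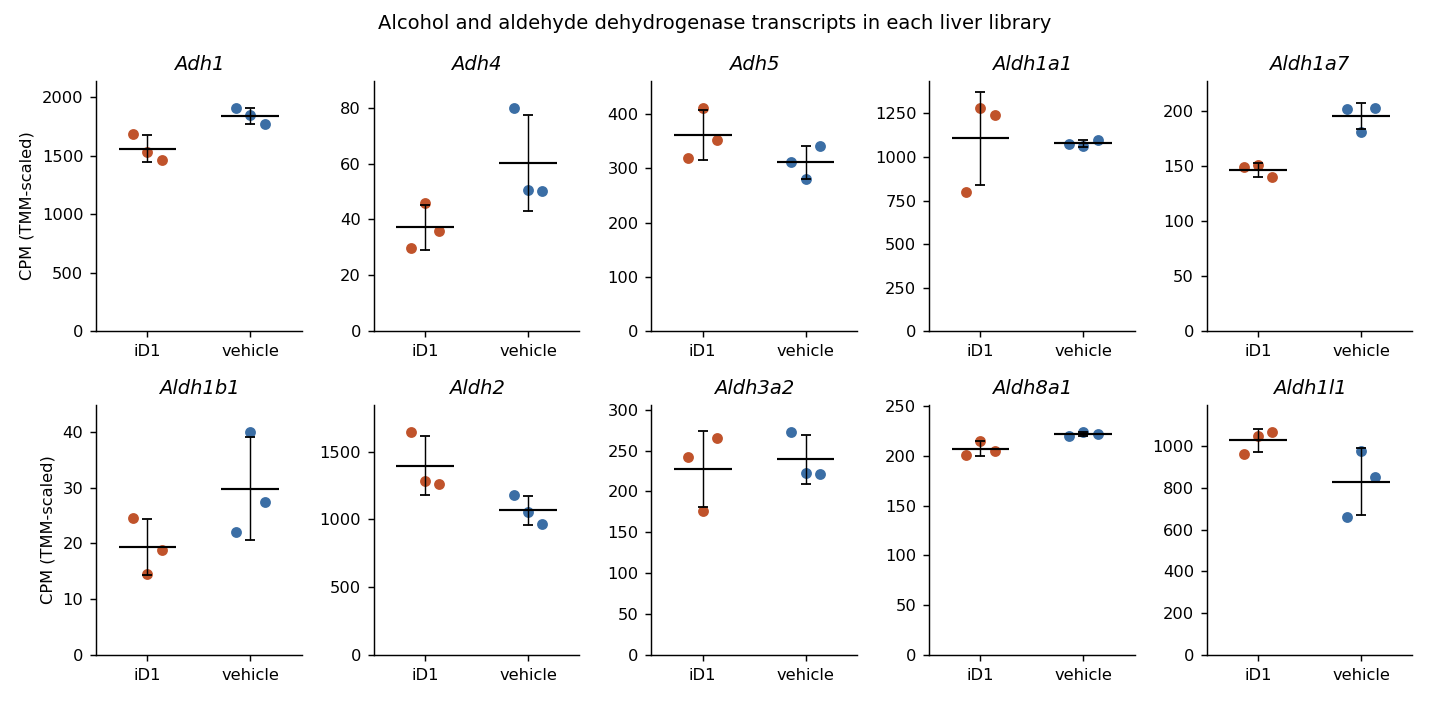
CPM (counts scaled to a common library size after TMM, y axes from 0) of the 10 members in each of the 3 iD1 (orange) and 3 vehicle (blue) libraries, with the mean and SD of each group. The iD1 points of Aldh1a7 lie between 139 and 151 CPM, under all vehicle points, while those of Aldh1a1 spread from 801 to 1282 CPM around the vehicle points.

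Adh1 is the class I enzyme that carries most ethanol oxidation in liver and also oxidises retinol. It had 1687, 1530.05 and 1461 CPM in iD1 livers, against 1908, 1846 and 1768 CPM in vehicle livers. Every iD1 library lay under every vehicle library, by a small margin. Adh1 averaged 1559 ± 116 CPM in iD1 and 1840 ± 70.0 CPM in vehicle (SD, n = 3 each). The log2 fold change of -0.24 (SE 0.15, 95% interval -0.58 to 0.10) did not pass the test (adjusted p = 0.315 in edgeR).

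Adh4, the class II enzyme with a preference for larger alcohols and retinol, had 29.8, 45.8 and 35.9 CPM in iD1 livers, against 79.9, 50.5 and 50.2 CPM in vehicle livers. The iD1 values were all lower, but the highest iD1 library lay close to the lower vehicle libraries, and vehicle replicate 1 stood above the rest. Its log2 fold change of -0.69 (SE 0.22, 95% interval -1.20 to -0.19) was the lowest of the 10 members and missed the threshold, with an adjusted p of 0.0663 in edgeR. DESeq2 put it past the threshold (adjusted p = 0.0165), as did edgeR without iD1 replicate 2 (adjusted p = 0.0456), and limma-voom did not. Over all settings tried and leave-outs, its log2 fold change ran from -0.92 to -0.44.

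Adh5 is the class III enzyme, the glutathione-dependent formaldehyde dehydrogenase that also reduces S-nitrosoglutathione. It had 319.5, 412 and 353 CPM in iD1 livers, against 313, 279.9 and 341 CPM in vehicle livers, and the groups overlapped. Its log2 fold change was 0.22 (SE 0.15, 95% interval -0.12 to 0.55, adjusted p = 0.365 in edgeR).

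Aldh1a1, the cytosolic enzyme that makes retinoic acid from retinaldehyde, had 801, 1282 and 1238 CPM in iD1 livers, against 1073, 1061 and 1099.5 CPM in vehicle livers. The vehicle libraries were nearly alike (coefficient of variation 1.81%), while iD1 replicate 1 lay under them and the other iD1 libraries lay above them (24.0%). The log2 fold change was 0.04 (SE 0.20, 95% interval -0.40 to 0.48, adjusted p = 0.917 in edgeR), and its sign turned under several settings.

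Aldh1a7, the rodent copy of Aldh1a1, had 149, 151 and 139 CPM in iD1 livers, against 201, 181 and 203 CPM in vehicle livers. The groups were clearly apart and both were tight. The mean fell to 146 ± 6.13 CPM in iD1, against 195 ± 12.1 CPM in vehicle (SD, n = 3 each), which is 0.751-fold. The log2 fold change was -0.41 (SE 0.12, 95% interval -0.68 to -0.15), and edgeR gave it an adjusted p of 0.0411. DESeq2 and limma-voom called it too. The call rests on all 6 libraries together, since leaving out any 1 of them gave adjusted p-values between 0.0680 and 0.146 in edgeR, with log2 fold changes from -0.46 to -0.38. It was also lost without a filter beyond 1 count (adjusted p = 0.0593) and with the replicate number as a block (adjusted p = 0.389). The block fit used only libraries whose replicate number occurs in both groups. It therefore left out iD1 replicate 3 and the unnumbered vehicle library.

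Within a library, the level of Aldh1a7 per kilobase was 0.212, 0.134 and 0.129 of that of Aldh1a1 in iD1 livers, against 0.214, 0.195 and 0.210 in vehicle livers. iD1 replicate 1, the library with the low Aldh1a1 value, lay among the vehicle libraries in this ratio, and the other iD1 libraries lay below them. The ratio was chosen after the values were seen and has no test. The 5 tested genes whose log2 CPM followed that of Aldh1a7 most closely over the 6 libraries were Apba3 (Pearson r 0.997), Fndc4 (0.996), Isy1 (0.995), Ttl (0.994) and Ttc9c (0.993), and 758 genes had an r over 0.9. These correlations share the libraries and the difference between the groups.

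Aldh1b1, a mitochondrial acetaldehyde and retinaldehyde dehydrogenase encoded by a gene with 2 exonic blocks in the annotation, had 24.5, 14.5 and 18.7 CPM in iD1 livers, against 22.1, 40.0 and 27.3 CPM in vehicle livers. The groups overlapped through iD1 replicate 1. Its log2 fold change was -0.63 (SE 0.26, 95% interval -1.23 to -0.03), with an unadjusted p under 0.05 and an adjusted p of 0.140 in edgeR.

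Aldh2, the mitochondrial enzyme that clears most acetaldehyde, had 1648, 1283 and 1261 CPM in iD1 livers, against 1178, 1056 and 964 CPM in vehicle livers. Each iD1 library exceeded each vehicle library, with iD1 replicate 1 well above the rest. With a log2 fold change of 0.39 (SE 0.17, 95% interval 0.01 to 0.77), the highest of the 10 members, Aldh2 missed the threshold at an adjusted p of 0.152 in edgeR (0.0466 unadjusted). Adh1 and Aldh2 catalyse successive steps of ethanol oxidation, and their log2 fold changes had opposite signs with neither past the test. The level of Aldh2 per kilobase was 0.377, 0.324 and 0.333 of that of Adh1 in iD1 livers, against 0.238, 0.221 and 0.210 in vehicle livers. All iD1 libraries were above all vehicle libraries in this ratio, which was 1.54 times as high on average, was chosen after the values were seen and has no test.

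Aldh3a2, the fatty aldehyde dehydrogenase of the endoplasmic reticulum, had 242, 176 and 266 CPM in iD1 livers, against 273, 222 and 222 CPM in vehicle livers. The ranges overlapped widely, and the log2 fold change was -0.07 (SE 0.18, 95% interval -0.46 to 0.32, adjusted p = 0.822 in edgeR).

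Aldh8a1, which acts on aminomuconate semialdehyde in tryptophan breakdown, had 201, 215 and 205 CPM in iD1 livers, against 220.2, 224 and 222 CPM in vehicle livers. The vehicle libraries were the tightest of any member (coefficient of variation 0.956%, and 3.49% in iD1), so that the groups did not overlap although they were close. The log2 fold change was -0.10 (SE 0.12, 95% interval -0.36 to 0.16, adjusted p = 0.599 in edgeR).

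Aldh1l1, the cytosolic formyltetrahydrofolate dehydrogenase of the folate cycle, had 964, 1049 and 1070.4 CPM in iD1 livers, against 661, 979 and 851 CPM in vehicle livers. Vehicle replicate 2 lay among the iD1 libraries, and vehicle replicate 1 was the lowest of all. The log2 fold change was 0.31 (SE 0.18, 95% interval -0.09 to 0.70, adjusted p = 0.265 in edgeR). Exons of Aldh1l1, Adh1 and Aldh2 share 499, 136 and 130 bases with predicted genes on the opposite strand, and Aldh1l1 shares 105 bases with another on its own strand, in a transcript other than the one searched for shared stretches. None of these predicted genes passed the filter on low counts, and the labels do not state whether counting used the strand.

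Summed over the 10 members, the level was 6066, 6158 and 6049 CPM in iD1 livers, against 5929, 5940.1 and 5748 CPM in vehicle livers. The iD1 sums were all slightly higher on this scale. As a share of the unscaled counts the members took 0.541% to 0.609% in iD1 and 0.580% to 0.656% in vehicle libraries, where the groups overlapped and the order of the means was reversed. The sum therefore has no direction apart from the scaling. In bulk liver, fewer cells of a type and less RNA per cell cannot be told apart.

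**Figure D2:**
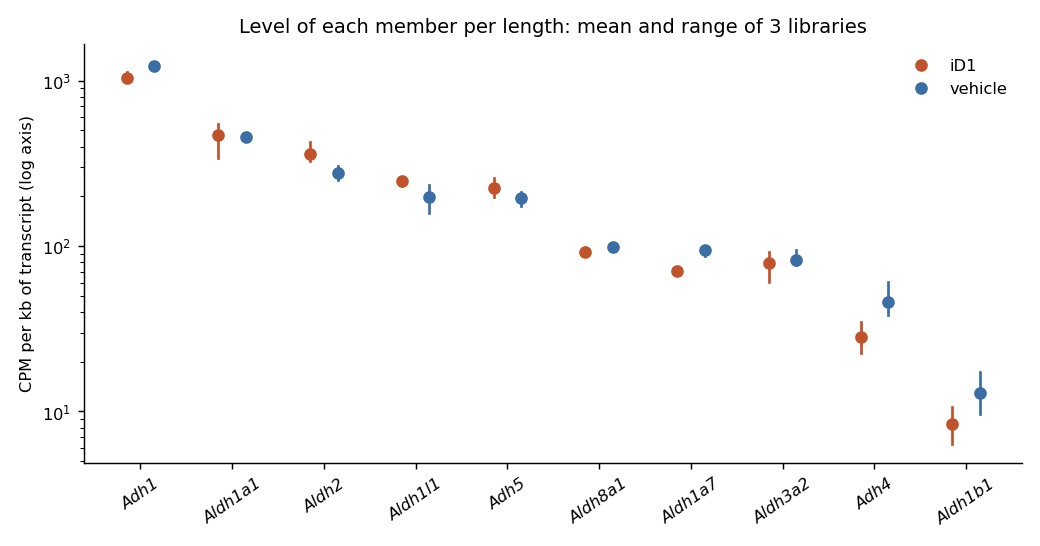
Level of each member in CPM per kilobase of its protein-coding transcript with the longest coding sequence (log axis), as the mean (point) and range (line) of 3 iD1 (orange) and 3 vehicle (blue) libraries. Adh1 is the highest and Aldh1b1 the lowest in both groups, at 1045 and 8.38 in iD1 and 1234 and 13.0 in vehicle.

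Levels were compared between members only per kilobase of the protein-coding transcript with the longest coding sequence in GENCODE M21. Adh1 led with 1045 CPM per kilobase in iD1 and 1234 in vehicle. Next came Aldh1a1 with 470 (340 to 544) in iD1 and 457 (450 to 466) in vehicle, and Aldh2 with 361 (326 to 426) in iD1 and 276 (249 to 305) in vehicle. Aldh1a1 and Aldh2 overlapped in iD1 livers and were apart in vehicle livers.

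Aldh1l1 averaged 246 CPM per kilobase in iD1 and 199 in vehicle, and Adh5 averaged 225 in iD1 and 194 in vehicle. The pair overlapped in both groups. Aldh8a1 (91.7 in iD1 and 98.4 in vehicle), Aldh3a2 (78.8 in iD1 and 82.7 in vehicle) and Aldh1a7 (70.9 in iD1 and 94.4 in vehicle) formed a lower tier in which neighbours overlapped. Adh4, at 28.3 in iD1 and 45.8 in vehicle, and Aldh1b1, at 8.38 in iD1 and 13.0 in vehicle, came last and overlapped with no other member. Adh1 kept the top place and Adh4 and Aldh1b1 the last places with the longest transcript of any kind and with all exons joined. The order in between was not, and Aldh1a1 was in place 4 in iD1 livers with all exons joined.

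**Figure D3:**
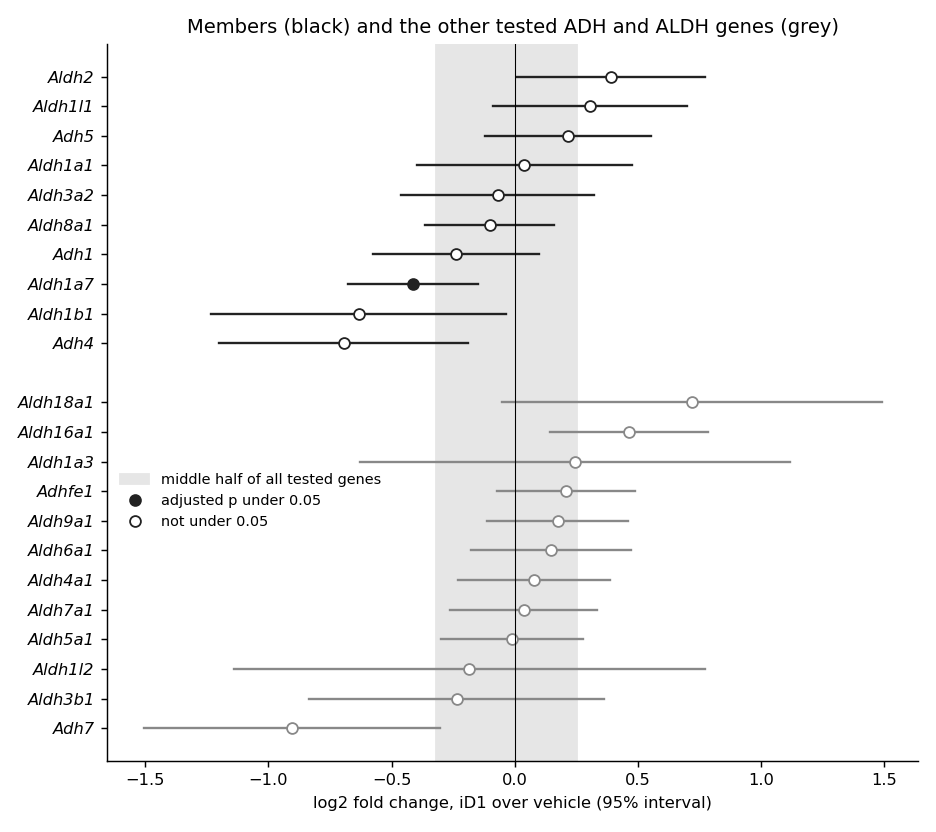
Log2 fold change of iD1 over vehicle (points) with its 95% interval (lines) for the 10 members (black) and the 12 other tested ADH and ALDH genes (grey); the filled point passed an adjusted p of 0.05. The grey band holds the central part of all tested genes, from -0.32 to 0.25, and Aldh1a7 is the only filled point.

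The other 18 genes of the ADH and ALDH families were set beside the members as a list. Of these, 12 were tested and 0 were called by edgeR, 2 had an unadjusted p under 0.05 (Aldh16a1 higher and Adh7 lower), DESeq2 called those 2 and limma-voom called Adh7. The median log2 fold change was 0.11. Adh7, the class IV retinol dehydrogenase best known from stomach, had 20.2, 10.6 and 9.94 CPM in iD1 livers, against 25.4, 27.2 and 23.6 CPM in vehicle livers. Each iD1 library was lower, with iD1 replicate 1 nearest to vehicle (log2 fold change -0.90, SE 0.26, adjusted p = 0.0512 in edgeR). Aldh16a1 had 41.4, 57.3 and 42.9 CPM in iD1 livers, against 32.1, 35.6 and 34.8 CPM in vehicle livers, all higher with iD1 (log2 fold change 0.46, SE 0.14, adjusted p = 0.0529 in edgeR). Without iD1 replicate 1 both were called.

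The enzymes of amino acid breakdown had small fold changes that did not pass the test. Aldh6a1 of valine breakdown had a log2 fold change of 0.15, Aldh7a1 of lysine breakdown 0.04, Aldh4a1 of proline breakdown 0.08 and Aldh5a1, the succinate semialdehyde dehydrogenase, -0.01. Aldh9a1 (0.17), Adhfe1 (0.21), Aldh3b1 (-0.24), Aldh1l2 (-0.18), Aldh1a3 (0.25) and Aldh18a1 (0.72) did not pass the test either, and the last 3 averaged under 1 CPM in each group. Adh6a, Adh6b, Aldh1a2, Aldh3a1, Aldh3b2 and Aldh3b3 had between 2 and 36 counts over all libraries and were not tested.

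**Figure D4:**
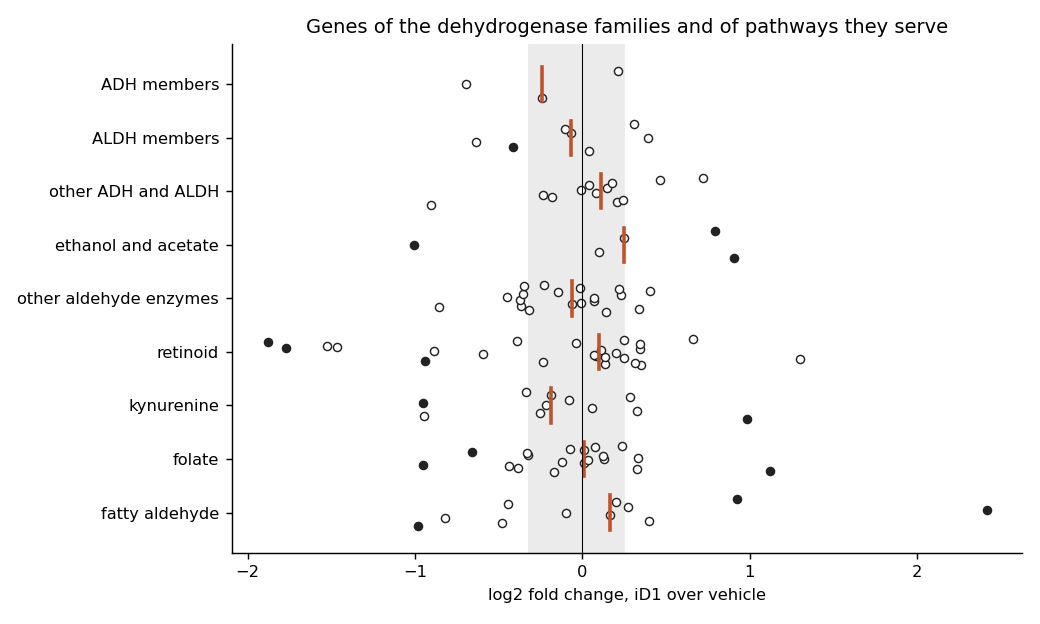
Log2 fold change of iD1 over vehicle for the tested genes of each list (points; filled where the adjusted p was under 0.05), with the list median (orange bar) and the central part of all tested genes (grey band). Filled points are 1 of 10 members and 14 of the 101 tested genes in the other lists (13.9%), against 16.7% of all tested genes.

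The reactions next to the members were read from 6 further lists, which with the other family members make 101 tested genes. Of these 14 were called, 6 higher and 8 lower, which is 13.9% against 16.7% of all tested genes. The called genes were on both sides within 4 of the lists.

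Around ethanol and acetate, 2 of 5 tested genes rose and 1 fell, with a list median of 0.25. Cyp2e1, the microsomal oxidase that also turns ethanol into acetaldehyde and marks pericentral hepatocytes, had 5493, 7238 and 8393 CPM in iD1 livers, against 3112, 3968 and 4202 CPM in vehicle livers. It was higher in every iD1 library (log2 fold change 0.90, SE 0.21, adjusted p = 0.0193 in edgeR), and it carries most of the summed level of the pericentral markers given above. Acot12, which releases acetate from acetyl-CoA, averaged 140.3 ± 28.2 CPM in iD1 and 80.9 ± 13.7 CPM in vehicle (SD, n = 3 each; adjusted p = 0.0163 in edgeR).

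Acss2, the cytosolic enzyme that activates acetate to acetyl-CoA, had 146, 118 and 119 CPM in iD1 livers, against 275, 268 and 228 CPM in vehicle livers. All iD1 libraries were far below all vehicle libraries (log2 fold change -1.01, SE 0.14, adjusted p = 0.00217 in edgeR).

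Of 19 tested aldo-keto reductases, carbonyl reductases, aldehyde oxidases and related aldehyde-clearing enzymes, 0 were called by edgeR, DESeq2 or limma-voom, and 3 had an unadjusted p under 0.05, all lower. Akr1d1 was called lower without vehicle replicate 1 and Akr1c20 without iD1 replicate 2, both named after their values were seen. The most abundant, Akr1c6, averaged 776 ± 99.5 CPM in iD1 and 812 ± 90.9 CPM in vehicle, and the aldehyde oxidase Aox3 averaged 297 ± 66.5 CPM in iD1 and 380.2 ± 65.7 CPM in vehicle (SD, n = 3 each).

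Of 24 tested genes of retinoid metabolism and signalling, 3 fell and 0 rose in edgeR, with a list median of 0.10. DESeq2 called 2 higher and 5 lower, limma-voom 0 higher and 3 lower, and 8 had an unadjusted p under 0.05. Without iD1 replicate 1 the count was 1 higher and 5 lower, while 5 were lower with the unnumbered vehicle library left out. Lrat, which esterifies retinol for storage and is a stellate cell marker, had 6.25, 4.17 and 8.59 CPM in iD1 livers, against 21.1, 25.02 and 18.2 CPM in vehicle livers. Its values were far apart between the groups (log2 fold change -1.77, SE 0.25, adjusted p = 0.00289 in edgeR). It was the only 1 of 6 stellate cell markers called by edgeR (DESeq2 called 2), and their summed level was 153 to 206 CPM in iD1 and 159 to 229 CPM in vehicle. The retinoic acid receptor gene Rarb averaged 1.26 ± 0.278 CPM in iD1 and 4.64 ± 1.33 CPM in vehicle (adjusted p = 0.00237 in edgeR). The retinaldehyde reductase Rdh11 averaged 39.9 ± 10.3 CPM in iD1 and 76.6 ± 3.56 CPM in vehicle (adjusted p = 0.00652 in edgeR).

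Around tryptophan breakdown, the pathway of Aldh8a1, 1 of 11 tested genes rose and 1 fell in edgeR, with a list median of -0.19. DESeq2 called 2 higher and 2 lower, and limma-voom 1 higher and 1 lower. The edgeR count was 0 without vehicle replicate 2 or iD1 replicate 3. It was 1 higher and 2 lower without iD1 replicate 1 or iD1 replicate 2. Tdo2, the enzyme that opens the tryptophan ring, had 2328, 2925 and 3674 CPM in iD1 livers, against 1135, 1507 and 1863 CPM in vehicle livers. Each iD1 library was above each vehicle library (log2 fold change 0.99, SE 0.23, adjusted p = 0.0205 in edgeR). Acmsd, which makes the aldehyde that Aldh8a1 oxidises, averaged 27.9 ± 6.32 CPM in iD1 and 54.1 ± 11.4 CPM in vehicle (log2 fold change -0.95, SE 0.20, adjusted p = 0.0151 in edgeR).

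In the folate cycle, the pathway of Aldh1l1, 1 of 19 tested genes rose and 2 fell, with a list median of 0.01. Shmt1, the cytosolic serine hydroxymethyltransferase, had 105, 94.6 and 90.2 CPM in iD1 livers, against 172, 203 and 186 CPM in vehicle livers. It was clearly lower in every iD1 library (log2 fold change -0.95, SE 0.12, adjusted p = 0.00147 in edgeR). Amt of the glycine cleavage system fell (log2 fold change -0.66, adjusted p = 0.0179 in edgeR) and the low mitochondrial Mthfd1l, at 2.40 ± 0.801 CPM in iD1 and 1.11 ± 0.157 CPM in vehicle, rose (adjusted p = 0.0303 in edgeR).

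Around fatty aldehydes, the substrates of Aldh3a2, 2 of 11 tested genes rose and 1 fell in edgeR, with a list median of 0.16. DESeq2 called 3 higher and 1 lower, and limma-voom 2 higher and 1 lower. Sgpl1, the lyase that makes a fatty aldehyde from sphingosine phosphate, had 38.1, 31.1 and 32.4 CPM in iD1 livers, against 69.5, 66.0 and 64.8 CPM in vehicle livers. The groups were tight and far apart (log2 fold change -0.98, SE 0.12, adjusted p = 0.00103 in edgeR). Slc27a2, a very long-chain acyl-CoA synthetase, averaged 1447 ± 276 CPM in iD1 and 764 ± 47.3 CPM in vehicle (adjusted p = 0.00824 in edgeR). Cyp4a14, a fatty acid omega-hydroxylase, averaged 766 ± 351 CPM in iD1 and 143 ± 80.0 CPM in vehicle (log2 fold change 2.41, SE 0.50, adjusted p = 0.0238 in edgeR).

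Of the 14 called genes, Acss2, Rdh11, Lrat, Rarb, Shmt1, Sgpl1 and Slc27a2 were called without each of the 6 libraries in turn. The other 7 lost the call without at least 1 of them, with the highest adjusted p in edgeR as follows. Cyp2e1 lost it without iD1 replicate 3 or any 1 vehicle library (0.0781). Acot12 lost it without iD1 replicate 3, the unnumbered vehicle library or vehicle replicate 1 (0.0604), and Acmsd without iD1 replicate 3, the unnumbered vehicle library or vehicle replicate 2 (0.0607). Tdo2 (0.0774) and Amt (0.0732) lost it without iD1 replicate 3, vehicle replicate 1 or vehicle replicate 2. Cyp4a14 lost it without iD1 replicate 2 or 3, the unnumbered vehicle library or vehicle replicate 1 (0.0758). Mthfd1l lost it without any 1 library other than iD1 replicate 1 (0.115).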

How the data were processed

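RNA of 3 iD1 and 3 vehicle liver samples was sequenced. The authors deposited estimated counts for each Ensembl gene, unscaled, in 1 table. The aligner, quantifier, genome build or annotation was not given in the sources used here. In each library 22.6% to 27.7% of the deposited values, genes at 0 included, were not exactly whole, and they were rounded. Symbols and positions came from GENCODE M21 (GRCm38), which matched 99.4% of the identifiers without version, and upstream sequences from RefSeq on GRCm38.p6. Of the 34866 genes, 11664 had no count.

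Genes were kept by filterByExpr (minimum count 10, minimum total 15), scaled by TMM and tested by quasi-likelihood in edgeR 4.0.16 under R 4.3.3 (robust F test, two-sided), adjusted by Benjamini-Hochberg over 13718 genes with a threshold of 0.05. Standard errors were derived from the log2 fold change and F. With 3 libraries against 3, an exact permutation test cannot go under 0.1. DESeq2 1.42.0, limma-voom (limma 3.58.1), other scalings and filters, a replicate block and leave-outs were alternatives. The replicate block used only libraries whose replicate number occurs in both groups. The length of the protein-coding transcript with the longest coding sequence was chosen as a scale after seeing the data. No pair of libraries within a group agreed within sampling noise.

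The members and the gene lists were chosen with earlier results of these data known. Named were all members, every tested gene of both families, and of each other list up to 4 called genes by smallest p, or the 2 most abundant where none was called, and the 5 genes most like the called member. Akr1d1, Akr1c20 and Ptprc were named after their values were seen.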

Additional observations from a re-analysis of the deposited data

How the results depend on the processing

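The count of called members, 1 in edgeR with TMM factors, was 2 with library size only and 2 with DESeq2 (Adh4 and Aldh1a7, both lower), and 0 without a filter beyond 1 count, at an adjusted p of 0.01 and with the replicate block. All values with the replicate block come from a fit without iD1 replicate 3 and the unnumbered vehicle library. Leaving out 1 library gave 0 to 1 called members, the 1 being Adh4 without iD1 replicate 2. The counts over all genes were 825 at an adjusted p of 0.01, 768 with the replicate block and 1212 to 2574 with 1 library left out, against 2293. Of the pathway genes 23 were called with DESeq2, 7 at an adjusted p of 0.01, 7 with the replicate block and 7 to 21 with 1 library left out, against 14. With library size only the median over all genes was -0.20 on the log2 scale.

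Of 140 log2 fold changes of members fitted again (the stricter threshold and the non-robust fit leave them as they are), 133 kept their direction. Aldh1a1 turned to -0.18 with library size only, -0.037 with upper-quartile factors and -0.073 with the replicate block, and ranged from -0.087 without iD1 replicate 2 to 0.23 without iD1 replicate 1 (-0.045 without iD1 replicate 3). Aldh3a2 turned to 0.037 without vehicle replicate 1, and ranged from -0.19 without iD1 replicate 3 to 0.080 without iD1 replicate 2. With the replicate block the adjusted p of Aldh1a7 was 0.389. The cause of these shifts was not tested. Replicate numbers 1 and 2 occur in both groups. Deviations of same-numbered libraries correlated at 0.17 and -0.13, and those of differently numbered libraries at 0.05 and -0.08. So few correlations cannot decide whether the numbers pair the samples, and the main fit did not pair them. With 3 libraries a group, the 95% interval of the log2 fold change included 0 in every member other than Adh4, Aldh1a7, Aldh1b1 and Aldh2.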
